A study of Mus musculus with 160 samples.

Results

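The genes described here are the Wnt ligands, their receptors and co-receptors, the R-spondins with their Lgr receptors, the secreted Wnt antagonists and the Axins. They were chosen by symbol, as protein-coding genes named Wnt, Fzd, Lrp5 or Lrp6, Ror1 or Ror2, Rspo, Lgr4 to Lgr6, Sfrp, Dkk1 to Dkk4, Wif1, Frzb or Axin, a rule that uses no measured value. This gave 52 of the 46078 genes in the table, of which 21519 were protein coding. There were 19 ligands, 14 receptors and co-receptors, 7 R-spondins and Lgr receptors, 10 antagonists and 2 Axins.

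Expression was measured by RNA sequencing (Smart-seq2) of 160 pools of 20 cells each, sorted from the aorta-gonad-mesonephros (AGM) region of mouse embryos that carried a Gata3-GFP knock-in reporter. Each of 8 populations had 20 pools. At E10.5, these were Gata3-GFP+ and Gata3-GFP- endothelial cells (EC; VE-cadherin+ CD41- CD45-) and Gata3-GFP+ and Gata3-GFP- hematopoietic cells (HC; CD41+ and/or CD45+). At E11.5, they were Gata3-GFP+ and Gata3-GFP- mesenchymal cells (MC; Pdgfrb+) and Gata3-GFP+ and Gata3-GFP- cells of the sympathetic nervous system (SNS; sorted on p75, the product of Ngfr). The genotype of all embryos is given as Gata3-GFP +/-, which includes the Gata3-GFP- cells, so that no population was free of the knock-in. GFP stands for activity of the Gata3 locus and does not mark a cell type. Cells of several embryos were combined before sorting, and the labels do not say which embryos a pool came from. All p-values therefore measure only the spread between pools, which may in part be technical.

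Wnt ligands are secreted lipid-modified proteins that bind Frizzled (Fzd) receptors. With the co-receptors Lrp5 and Lrp6 they stop the Axin-containing complex from degrading β-catenin, which then acts on target genes with Tcf and Lef factors. Other Wnts, among them Wnt5a and Wnt11, act mainly without β-catenin, and some of them use Ror1 or Ror2. R-spondins bound to Lgr receptors keep Frizzleds at the cell surface. Sfrp proteins, Frzb and Wif1 bind the Wnts themselves, whereas Dkk1 and Dkk2 bind Lrp5 and Lrp6. Wnt signalling takes part in the formation of blood stem cells in the embryonic aorta, in neural crest development and in the patterning of mesenchyme.

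Of the 160 pools, 153 passed the study's quality limits, with 1400824 to 16004756 counts on genes (median 3801233) and 17 to 20 pools per population. Gata3 itself followed the labels at E10.5, at 28.5 to 174 CPM (counts scaled to a common library total) in Gata3-GFP+ EC and 4.37 to 29.6 in Gata3-GFP- EC, and at 12.7 to 149 in Gata3-GFP+ HC and 1.78 to 12.9 in Gata3-GFP- HC. The markers of 12 of the E11.5 pools, 3 in each population, went against their label. The summed CPM of 7 mesenchymal markers was 498 to 718 in these 3 pools labelled Gata3-GFP+ MC against 3585 to 5468 in the others, and 82.4 to 208 in the 3 labelled Gata3-GFP- MC against 2510 to 4038. The reverse was seen in the 3 pools labelled Gata3-GFP+ SNS (2722 to 2919 against 101 to 335) and the 3 labelled Gata3-GFP- SNS (3978 to 5171 against 367 to 897). Sympathetic and neural crest markers moved the other way in all 12. The labels were kept, and every E11.5 comparison is given with all pools and again without these 12. With all pools, Gata3 was at 16.2 to 82.2 CPM in Gata3-GFP+ MC and 2.52 to 395 in Gata3-GFP- MC, and at 9.96 to 306 in Gata3-GFP+ SNS and 11.2 to 93.9 in Gata3-GFP- SNS, so that Gata3 too went against the GFP label in pools labelled Gata3-GFP- MC and Gata3-GFP+ SNS. Without the 12, it was at 19.7 to 70.4 CPM in Gata3-GFP+ MC and 2.52 to 19 in Gata3-GFP- MC, and at 111 to 306 in Gata3-GFP+ SNS and 11.2 to 93.9 in Gata3-GFP- SNS.

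Sequence is shown for the starts of 4 members on which the E10.5 results turn and for which RefSeq gave an entry: Wnt11 and Dkk2, whose levels in the Gata3-GFP+ and Gata3-GFP- EC pools did not overlap, Fzd1, which was higher in both Gata3-GFP+ EC and Gata3-GFP+ HC, and Wnt2, the ligand with the highest mean level in Gata3-GFP+ HC. Each is the 250 bases before a RefSeq transcript start (GRCm38.p6), 5′ to 3′ on the strand of the gene. Capitals mark matches on either strand to a GATA motif (AGATAA or its variant AGATAG, and TGATAA or its variant TGATAG), the kind of site that Gata factors bind, or to a TCF/LEF motif (CTTTGAA or its variant CTTTGAT, and CTTTGTA or its variant CTTTGTT). Wnt11 lies at chr7:98835112-98855195 on the plus strand, and its first start (window chr7:98834862-98835111) had 1 TCF/LEF match and its second (window chr7:98838595-98838844) 1 GATA match. Dkk2, at chr3:132085292-132180304 on the plus strand, had no match in its window (chr3:132085042-132085291). Fzd1, at chr5:4753839-4758035 on the minus strand in GENCODE M21, had 2 GATA matches (window chr5:4758217-4758466), and so did Wnt2, at chr6:17988940-18030585 on the minus strand (window chr6:18030446-18030695).
Wnt11, first start: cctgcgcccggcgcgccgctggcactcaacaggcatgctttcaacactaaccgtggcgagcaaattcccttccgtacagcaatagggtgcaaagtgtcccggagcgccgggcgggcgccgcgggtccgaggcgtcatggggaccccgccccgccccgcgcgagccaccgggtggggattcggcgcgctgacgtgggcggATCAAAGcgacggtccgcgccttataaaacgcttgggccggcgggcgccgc
Wnt11, second start: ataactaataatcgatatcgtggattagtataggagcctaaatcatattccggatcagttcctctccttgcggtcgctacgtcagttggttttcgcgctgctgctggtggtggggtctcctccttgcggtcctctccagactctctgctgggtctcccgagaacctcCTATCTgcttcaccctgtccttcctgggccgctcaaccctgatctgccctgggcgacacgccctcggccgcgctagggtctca
Dkk2: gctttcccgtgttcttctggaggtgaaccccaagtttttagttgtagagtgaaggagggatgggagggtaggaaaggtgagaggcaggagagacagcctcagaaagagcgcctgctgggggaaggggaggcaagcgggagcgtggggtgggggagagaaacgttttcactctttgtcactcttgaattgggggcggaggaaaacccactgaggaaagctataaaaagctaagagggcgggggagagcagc
Fzd1: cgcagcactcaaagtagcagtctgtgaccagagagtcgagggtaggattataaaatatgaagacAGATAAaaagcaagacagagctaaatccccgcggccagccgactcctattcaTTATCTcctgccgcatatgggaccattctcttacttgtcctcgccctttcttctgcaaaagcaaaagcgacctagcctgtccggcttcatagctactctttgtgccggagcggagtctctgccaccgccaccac
Wnt2: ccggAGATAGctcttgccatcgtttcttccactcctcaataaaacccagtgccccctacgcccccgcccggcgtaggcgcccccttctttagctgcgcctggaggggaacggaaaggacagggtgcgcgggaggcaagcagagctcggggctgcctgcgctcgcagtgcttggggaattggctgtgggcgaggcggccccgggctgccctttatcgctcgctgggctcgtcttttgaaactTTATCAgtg
Entries were found for 34 members, with 37 windows. A GATA motif was present in 6 of these windows (16.2%) against 26.5% of all 32851 windows of that length, and a TCF/LEF motif in 4 (10.8%) against 14.8%. A match is a stretch of letters and does not show that a factor binds there. The members without an entry were Wnt5a, Wnt7b, Wnt8a, Wnt10a, Fzd2, Fzd3, Fzd6, Fzd8, Lrp5, Lrp6, Lgr5, Rspo2, Rspo3, Sfrp1, Sfrp4, Dkk3, Dkk4 and Axin1.

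Which members were present, and in which cells, was asked first. Levels are CPM after scaling over all pools, and levels of different genes are compared only per kilobase of exon. Most members were detected somewhere, but the populations had different leading genes. In Gata3-GFP+ EC, Dkk2 had the highest level at 50.1 ± 11.8 CPM per kilobase (SD, n = 19), followed by the receptor Fzd6 at 17.96 ± 5.44. In Gata3-GFP- EC the leading genes were the receptors Fzd4 at 6.48 ± 1.70 and Fzd10 at 5.76 ± 2.68 CPM per kilobase (n = 20). Fzd4 and Fzd10 differed there by less than their spread. The antagonist Sfrp1 led in Gata3-GFP+ HC at 25.6 ± 18.6, with the ligand Wnt2 next at 12.2 ± 10.7 CPM per kilobase (n = 20), again closer than their spread. In Gata3-GFP- HC the highest was Axin1, a scaffold of the β-catenin degradation complex, at 7.91 ± 2.82 CPM per kilobase (n = 20).

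The antagonist Sfrp2 was the highest member per kilobase in both MC populations, at 221 ± 130 CPM per kilobase in the pools labelled Gata3-GFP+ MC (n = 20; 259 ± 98.4 without the 3 pools) and 64.3 ± 42.4 in those labelled Gata3-GFP- MC (n = 17; 77.8 ± 33.3 without them). In the pools labelled Gata3-GFP+ SNS, Sfrp1 led at 17.1 ± 10.4 CPM per kilobase (n = 18; 13.8 ± 6.80 without the 3 pools). In those labelled Gata3-GFP- SNS the leading gene depended on the pools used, since Sfrp2 was at 49.6 ± 98.9 CPM per kilobase with all 19 pools and at 8.35 ± 8.79 without the 3, where Sfrp1 led at 47.6 ± 10.8.

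**Figure D1:**
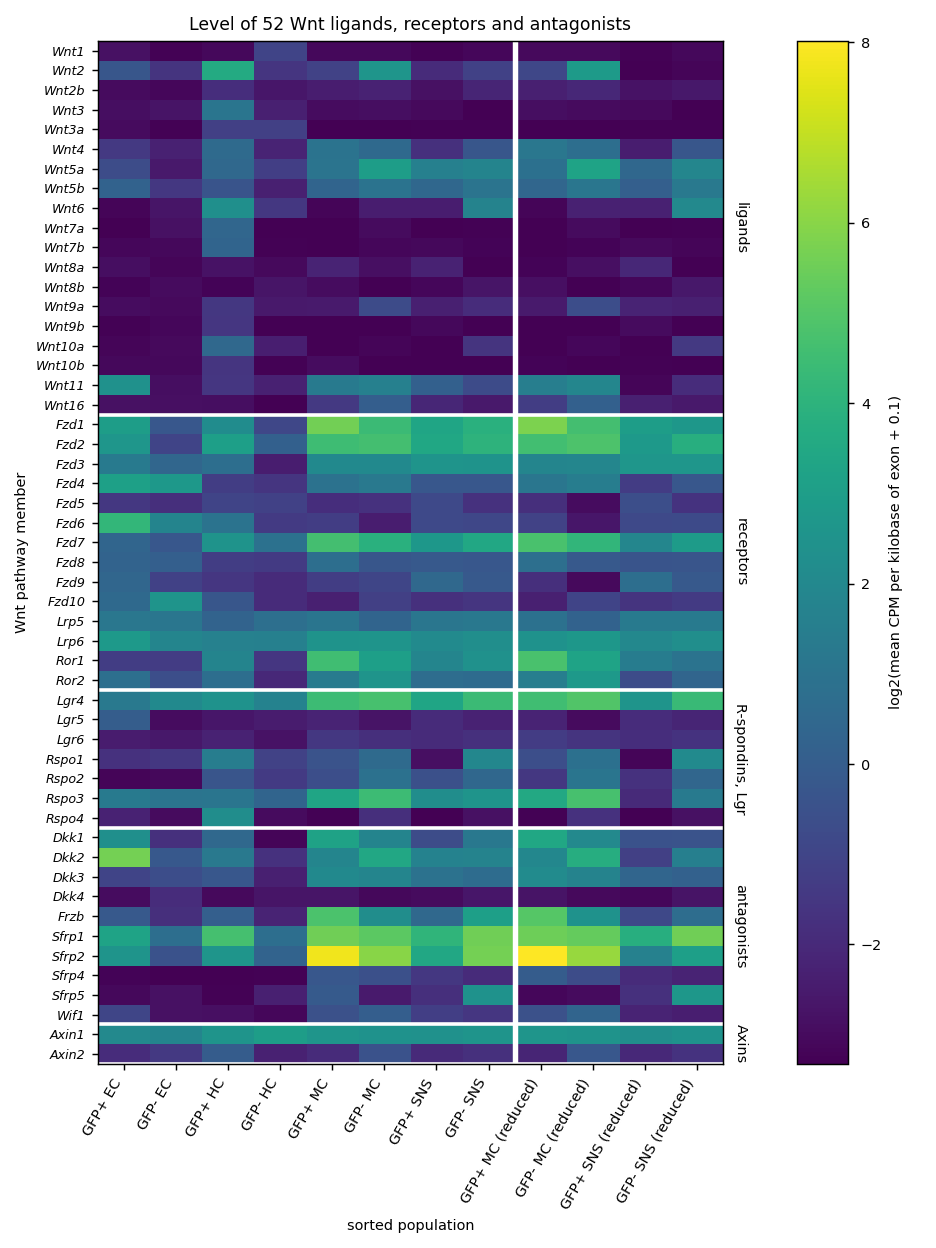
Mean level of the 52 members (rows, by role) in the 8 sorted populations (columns), as log2 of the mean CPM per kilobase of exon plus 0.1; the 4 columns on the right leave out the 12 E11.5 pools whose markers went against their label. Dkk2 stands out in Gata3-GFP+ EC (50.1 CPM per kilobase), and Sfrp2 is the brightest cell of the MC columns (221 and 64.3).

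The number of members with at least 10 counts in a pool had a median of 20 in Gata3-GFP+ EC and 12 in Gata3-GFP- EC, of 22 in Gata3-GFP+ HC and 9.5 in Gata3-GFP- HC, of 25 and 24 in the Gata3-GFP+ and Gata3-GFP- MC, and of 20 and 24 in the Gata3-GFP+ and Gata3-GFP- SNS. Of the 52 members, 44 had enough counts to be tested in at least 1 of 10 comparisons. The other 8 were the ligands Wnt1, Wnt2b, Wnt3a, Wnt8a, Wnt8b, Wnt9b and Wnt10b and the antagonist Dkk4. Tests were made with edgeR's quasi-likelihood test over all genes that reached 10 counts in 5 or more compared pools. A member nearly absent from 1 group passes this filter only through the other, so that its direction is set by the filter. This was so for Wnt11 in EC, Rspo4, Wnt7a and Wnt7b in HC and Rspo1 in SNS, and other rare members may be alike. A gene was called when its p, adjusted by Benjamini and Hochberg's method, was below 0.01 and its log2 fold change exceeded 0.1 in size.

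The first comparison asked how Gata3-GFP+ EC differ from Gata3-GFP- EC. The antagonists Dkk1, Dkk2, Sfrp1 and Sfrp2 and the receptors Fzd1, Fzd2, Fzd3 and Fzd6 were higher in the Gata3-GFP+ pools, together with the ligand Wnt11 and the R-spondin receptor Lgr5. Of the 29 members tested, 12 were called higher, against 19.5% of all genes tested, and 1 was called lower, against 16.5% (36.0% in either direction). The members' median log2 fold change was 1.28 against 0.10 for all genes. Wnt11 passed the filter only through Gata3-GFP+ pools, so the counts of higher members and this median are in part fixed by the filter. By role, 2 of 4 ligands tested, 5 of 14 receptors, 1 of 3 R-spondins and Lgr receptors, and 4 of 6 antagonists were higher, while neither Axin was called.

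Wnt11, a ligand of the β-catenin-independent branch, ranged from 6.46 to 43.3 CPM (median 19.3, n = 19) in Gata3-GFP+ EC and from 0 to 0.983 (median 0, n = 20) in Gata3-GFP- EC. Every Gata3-GFP+ pool was above every Gata3-GFP- pool. The log2 fold change was 6.96 ± 0.46 (SE from the F statistic of the test, adjusted p = 2.6e-16). Some 8.80% of its exon bases overlap a gene on the other strand, and the library method does not mark strand, so reads of the pair cannot be told apart. The same holds for 16.1% of the exon bases of Sfrp2, 13.1% of Rspo3 and 17.8% of Fzd5, and for under 10% of Wnt5a, Wnt7b, Fzd6 and Axin2.

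Dkk2, a secreted ligand of Lrp5 and Lrp6, was at 125 to 283 CPM (median 177) in Gata3-GFP+ EC and at 0 to 12.7 (median 1.31) in Gata3-GFP- EC. These groups did not overlap either. Its log2 fold change was 6.10 ± 0.32 (adjusted p = 1.1e-19). In these bulk pools, a higher level in every cell and a larger number of cells with the transcript cannot be told apart.

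Lgr5, a receptor for R-spondins and a marker of several adult stem cells, was at 0 to 25.7 CPM (median 9.85) in Gata3-GFP+ EC and 0 to 2.41 (median 0) in Gata3-GFP- EC. The groups overlapped in a few Gata3-GFP+ pools at or near 0. The log2 fold change was 4.82 ± 0.62 (adjusted p = 1.5e-08). Dkk1, an inhibitor of Lrp5 and Lrp6, was uneven among the Gata3-GFP+ EC pools, at 0 to 47.9 CPM (median 6.63), against 0 to 4.78 (median 0) in Gata3-GFP- EC. The groups overlapped, and the log2 fold change was 4.49 ± 0.82 (adjusted p = 1.5e-05).

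Among the receptors, Fzd2 was at 3.84 to 60.3 CPM (median 17.6) in Gata3-GFP+ EC and 0 to 4.54 (median 0.729) in Gata3-GFP- EC. The lowest Gata3-GFP+ values touched the highest Gata3-GFP- values. The log2 fold change was 3.87 ± 0.45 (adjusted p = 2.0e-09). Fzd1 was at 9.64 to 53.0 CPM (median 30.2) against 0 to 16.4 (median 1.78), with a small overlap and a log2 fold change of 3.31 ± 0.41 (adjusted p = 5.4e-09). The other members called higher were the antagonists Sfrp2 (log2 fold change 3.11) and Sfrp1 (2.49), the ligand Wnt5a (2.80), the receptors Fzd6 (2.36) and Fzd3 (0.92) and the co-receptor Lrp6 (0.92).

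Fzd10 was the member called lower in Gata3-GFP+ EC, and its pool values were looked up after that call was seen. It was at 0 to 39.2 CPM (median 0.884) in Gata3-GFP+ EC and 6.62 to 34.5 (median 17) in Gata3-GFP- EC, with a log2 fold change of -2.08 ± 0.54 (adjusted p = 0.0015). Its groups overlapped. Axin2, a negative regulator of the pathway that β-catenin induces, was at 0 to 4.35 CPM (median 0.180) in Gata3-GFP+ EC and 0 to 6.78 (median 0.958) in Gata3-GFP- EC, and was not called (log2 fold change -0.68, adjusted p = 0.46). Neither were Axin1 (0.12, adjusted p = 0.72), Lrp5 (0.02, adjusted p = 0.95) or Lgr4 (-0.85, adjusted p = 0.013).

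**Figure D2:**
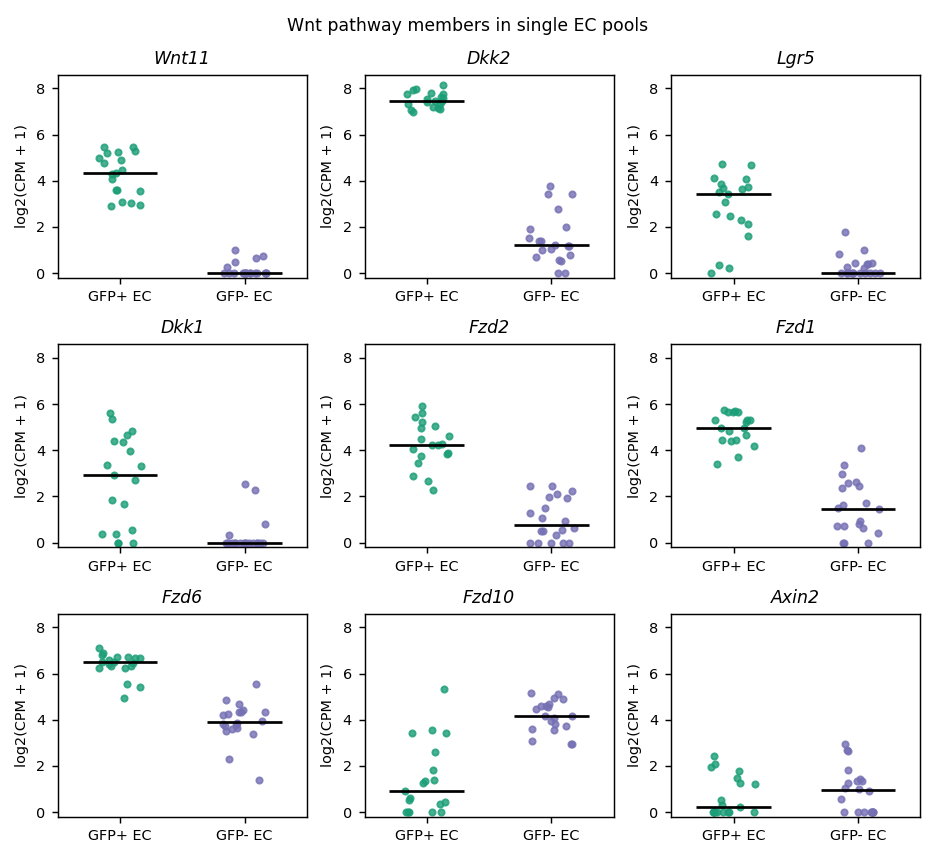
Level of 9 members in single EC pools, as log2(CPM + 1), with 19 Gata3-GFP+ EC pools in green, 20 Gata3-GFP- EC pools in purple and the median as a line. Wnt11 and Dkk2 separate the populations fully, Fzd2 and Fzd1 nearly so, Fzd10 is lower in most Gata3-GFP+ pools, and Axin2 overlaps over most of its range.

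Markers of other cells moved with this comparison. All 7 mesenchymal markers were called higher in Gata3-GFP+ EC, with a sum of 25.9 to 1548 CPM (median 92.0) against 3.87 to 72.0 (median 15.6), and no marker was at 0 throughout. Of 7 sympathetic markers 2 were tested, and both were called higher. In pools 1 to 9 of each population, in column order, nephric duct markers summed to 4.04 to 63.5 CPM in Gata3-GFP+ EC and 0.175 to 7.36 in Gata3-GFP- EC. The sums of the other pools are not given here. The part of these markers in the members' differences, that of Wnt11 included, was not tested. The 7 endothelial markers summed to 5308 to 7139 CPM in Gata3-GFP+ EC and 3453 to 5153 in Gata3-GFP- EC. One Gata3-GFP+ EC pool held over 1000 CPM of mesenchymal markers, and without it 12 members were called higher and 2 lower. Scaling by the ERCC spike-in RNAs moved the median log2 fold change of all genes by -0.70 in EC. Under it 9 members were called higher and 2 lower, and Fzd3, Lrp6 and Wnt5a were no longer called.

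The same question was asked of HC, where ligands, receptors and antagonists were among the members called. Of 8 ligands tested 7 were higher. Without 8 Gata3-GFP+ pools with surface ectoderm markers, 2 ligands were tested and 1 of them, Wnt2, was higher. Rspo4, Wnt7a and Wnt7b passed the filter only through Gata3-GFP+ pools. The counts of higher members and the members' median below are thus in part fixed by the filter. Of 33 members tested, 23 were called higher in Gata3-GFP+ HC, against 17.1% of all genes, and 0 were called lower, against 9.53% (26.6% in either direction). That 0 was edgeR's and DESeq2's, the study's test called 1 lower, and 1 was lower at an unadjusted p under 0.05 in edgeR. The members' median log2 fold change was 3.0 against 0.05 for all genes, and 2.99 with Wnt7a, which had no count in Gata3-GFP- HC, set to its bound. Unlike in EC, the ranges of every called member overlapped between Gata3-GFP+ and Gata3-GFP- HC, the lowest Gata3-GFP+ pool being no higher than the highest Gata3-GFP- pool. For Wnt2, Fzd1, Fzd3 and Dkk2 the lowest Gata3-GFP+ value, 0.527 CPM, came from the same pool. The share of all genes without overlap is not given here.

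Wnt2, a β-catenin-type ligand, was at 0.527 to 81.6 CPM (median 26.9, n = 20) in Gata3-GFP+ HC and 0 to 2.66 (median 0.317, n = 20) in Gata3-GFP- HC. Most Gata3-GFP+ pools were above all Gata3-GFP- pools, with an overlap at the low end. The log2 fold change was 5.57 ± 0.58 (adjusted p = 8.7e-10). Wnt6 was at 0 to 48.7 CPM (median 4.11) against 0 to 3.94 (median 0.0886). About as many Gata3-GFP+ pools were within the Gata3-GFP- range as above it, and the log2 fold change was 4.33 ± 0.89 (adjusted p = 0.00014).

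Rspo4, an R-spondin, was at 0 to 63.2 CPM (median 7.32) in Gata3-GFP+ HC and 0 to 0.594 (median 0) in Gata3-GFP- HC. Its log2 fold change was 6.65 ± 0.75 (adjusted p = 4.4e-09). This direction was set by the filter, so the p gives it no separate support. Rspo4 was low elsewhere, with a mean of 0.260 CPM in Gata3-GFP+ EC and at most 0.451 in any MC or SNS population.

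Fzd3, a receptor best known for axon guidance and tissue polarity, was at 0.527 to 57.3 CPM (median 16.4) in Gata3-GFP+ HC and 0 to 9.82 (median 0.292) in Gata3-GFP- HC, a log2 fold change of 4.30 ± 0.57 (adjusted p = 1.2e-07). Ror1, a receptor for Wnt5a, was at 0 to 37.0 CPM (median 14.3) against 0 to 7.38 (median 0.290), a log2 fold change of 3.84 ± 0.58 (adjusted p = 1.2e-06). The antagonist Sfrp1 was at 2.63 to 287 CPM (median 92.2) against 0 to 40.1 (median 3.12), a log2 fold change of 4.06 ± 0.55 (adjusted p = 2.2e-07). All of these overlapped at the low end of the Gata3-GFP+ pools. The mean of Ror1 was 1.86 CPM in Gata3-GFP+ EC and 1.76 in Gata3-GFP- EC, where it was not called (log2 fold change 0.04, adjusted p = 0.97).

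The other ligands called higher in Gata3-GFP+ HC were Wnt3 (log2 fold change 4.40), Wnt10a (3.52), Wnt4 (3.43), Wnt7a and Wnt7b. Wnt7a had no count in Gata3-GFP- HC, and the Gata3-GFP+ level was at least 4.72-fold higher than a floor of 3 counts per library. Wnt7b had 339 counts in Gata3-GFP+ HC and 1 in Gata3-GFP- HC, a ratio of 425 (95% counting interval 75.8 to 16852). This interval treats each read as independent and leaves out the spread between pools, so it is too narrow. The other receptors were Fzd1 (3.44), Ror2 (3.37), Fzd2 (3.10), Fzd6 (2.75), Fzd10 (2.11) and Fzd7 (1.68). Rspo1 (3.0) and the antagonists Dkk2 (3.41), Frzb (3.02), Dkk3 (2.84) and Sfrp2 (2.36) were also higher. Axin2, at 1.05 to 8.6 CPM (median 4.14) in Gata3-GFP+ HC and 0 to 3.98 (median 0) in Gata3-GFP- HC, was called as well (2.99, adjusted p = 0.00019). The co-receptors Lrp5 (-0.54, adjusted p = 0.12) and Lrp6 (0.06, adjusted p = 0.79) were not.

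Both E10.5 comparisons called 7 members higher in the Gata3-GFP+ pools, namely the receptors Fzd1, Fzd2, Fzd3 and Fzd6 and the antagonists Dkk2, Sfrp1 and Sfrp2. They made up 58.3% of those called higher in EC and 30.4% of those called higher in HC. How many of all genes were called higher in both is not given here, so whether this overlap is unusual was not tested.

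**Figure D3:**
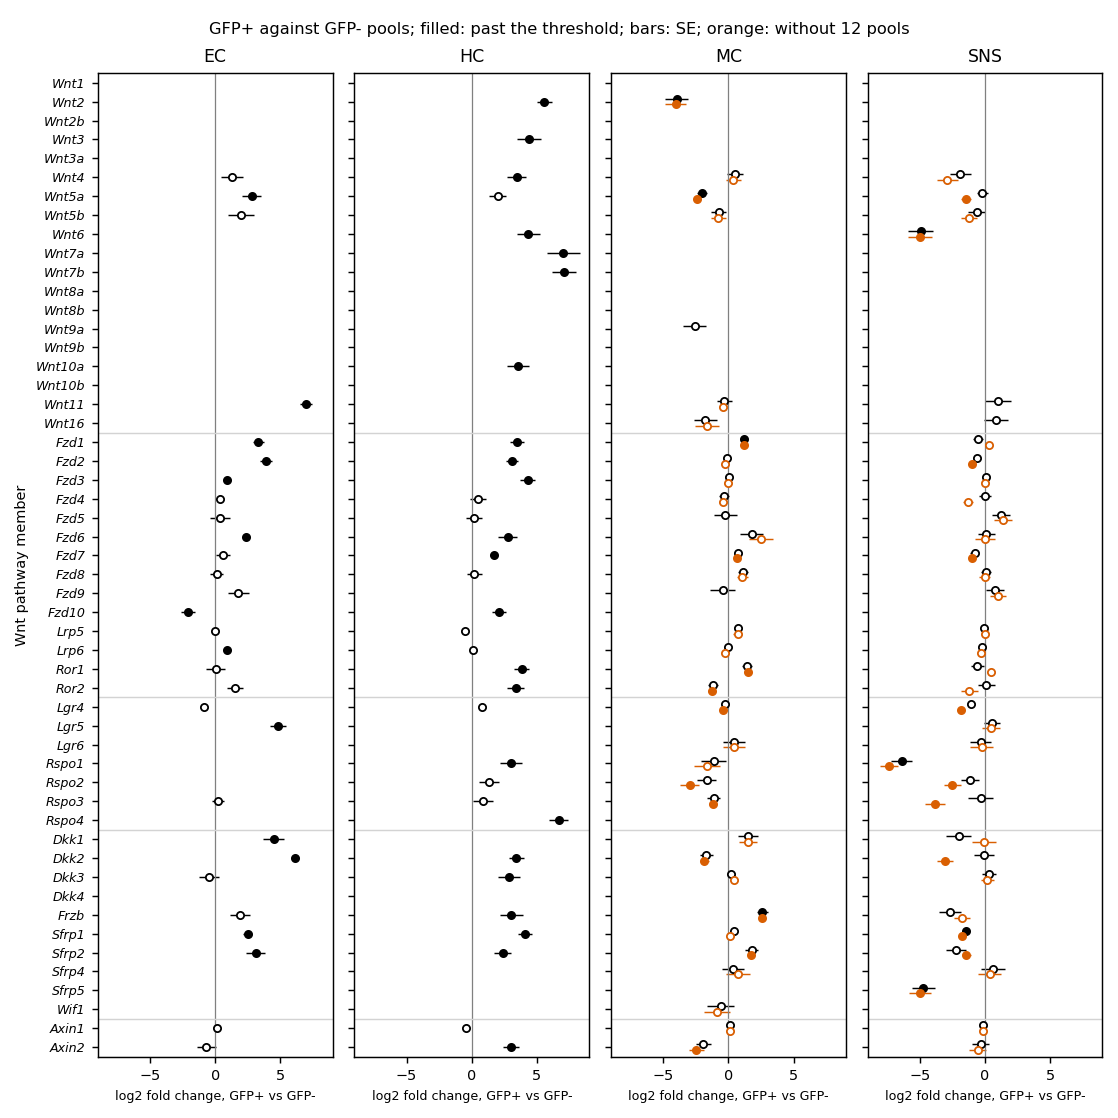
Log2 fold change of Gata3-GFP+ against Gata3-GFP- pools for each member (rows, in the order of roles) in EC, HC, MC and SNS, with SE as bars and filled points past the threshold; orange points leave out the 12 E11.5 pools whose markers went against their label. Called members lie to the right in EC (12 of 13) and HC (23 of 23), on both sides in MC and to the left in SNS (4 of 4 with all pools).

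Within Gata3-GFP+ HC the ligands fell into different sets of pools. The summed CPM of 5 surface ectoderm markers, keratins among them, was 65.0 to 316 in 8 Gata3-GFP+ HC pools, above the highest Gata3-GFP- HC pool at 63.1. All 8 pools with at least 10 counts of Wnt7b were among these, as were 6 of 6 for Wnt7a, 5 of 5 for Wnt10a, 7 of 8 for Wnt3 and Wnt4 and 8 of 10 for Wnt6. For Wnt2 it was 7 of 17 pools and for Rspo4 4 of 14. Wnt7b was at 4.65 to 26.7 CPM (median 11.504) in the 8 pools and 0 to 1.58 (median 0.188) in the other 12, whereas Wnt2 was at 2.46 to 68.1 (median 19.8) and 0.527 to 81.6 (median 27.1), and Rspo4 at 0 to 14.4 (median 2.23) and 0 to 63.2 (median 10.2).

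Without these 8 pools, 25 members were tested and 14 were called, all higher, against 12.5% of all genes called higher and 7.35% called lower. All 14 had been called with every pool. No Gata3-GFP- HC pool was left out, and the surface ectoderm sum reached 63.1 CPM there, against 38.3 in the Gata3-GFP+ HC pools kept. Wnt3, Wnt4, Wnt6, Wnt7a, Wnt7b, Wnt10a, Dkk3 and Fzd10 then had too few counts to be tested, and Fzd6 was not called (log2 fold change 1.01, adjusted p = 0.35). Wnt2 (5.68), Rspo4 (7.09), Fzd3 (4.47), Sfrp1 (4.12), Ror1 (3.82) and Axin2 (2.99) kept their calls. The direction of Rspo4 was again set by the filter. Mesenchymal markers were higher in Gata3-GFP+ HC too, with 7 of 7 called and a median sum of 320 CPM against 35.0 in Gata3-GFP- HC. Their sum was 17.4 CPM in the pool that held the 0.527 CPM values given above. It was 191 to 956 CPM in the other Gata3-GFP+ HC pools and 3.37 to 174 in Gata3-GFP- HC. Also called higher were 7 of 7 sympathetic, 6 of 7 endothelial and 4 of 4 megakaryocyte markers. The 7 hematopoietic markers had a median sum of 1810.3 CPM in Gata3-GFP+ HC and 2854 in Gata3-GFP- HC. Nephric duct markers summed to 0.714 to 348 CPM in Gata3-GFP+ HC and 0 to 10.1 in Gata3-GFP- HC. Mesenchymal, sympathetic and megakaryocyte markers were also called in full without the 8 pools. The part of these markers in the members' differences was not tested.

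**Figure D4:**
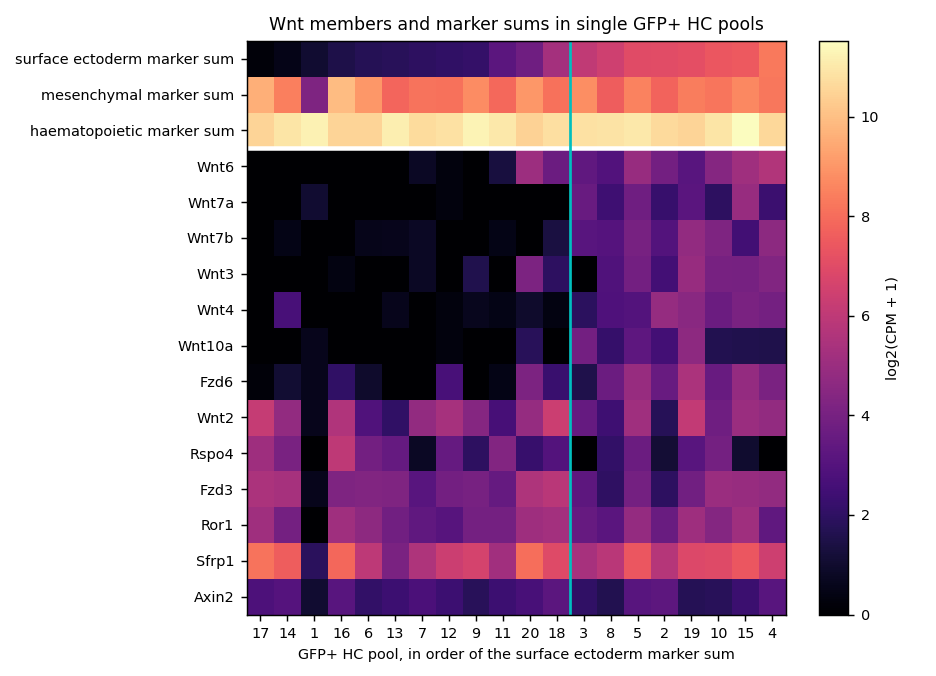
Single Gata3-GFP+ HC pools (columns, in the order of their surface ectoderm marker sum), with 3 marker sums above the white line and 13 members below it, all as log2(CPM + 1); the vertical line sets off the 8 pools above every Gata3-GFP- HC pool. Wnt7a, Wnt7b and Wnt10a are bright to the right of the line, whereas Wnt2, Rspo4, Fzd3, Ror1 and Sfrp1 are spread over both sides.

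At E11.5 the Gata3-GFP+ and Gata3-GFP- MC differed in fewer members and in both directions. The Wnt-binding antagonist Frzb and the receptor Fzd1 were higher in the pools labelled Gata3-GFP+ MC, and the ligands Wnt5a and Wnt2 were lower. Of 35 members tested, 2 were called higher, against 2.21% of all genes, and 2 lower, against 2.15% (4.36% in either direction). With the 12 pools left out, 32 members were tested, 5 were called higher, against 5.52%, and 8 lower, against 4.90%.

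Frzb was at 3.57 to 171 CPM (median 95.6, n = 20) in the pools labelled Gata3-GFP+ MC and 0.190 to 32.0 (median 14.4, n = 17) in those labelled Gata3-GFP- MC, a log2 fold change of 2.60 ± 0.40 (adjusted p = 2.5e-05). Without the pools against their label, the ranges were 58.0 to 171 (n = 17) and 6.56 to 32.0 (n = 14), with no overlap (2.57 ± 0.20, adjusted p = 1.3e-11). Fzd1 was at 14.9 to 297 CPM (median 223) and 8.93 to 200 (median 86.0), a log2 fold change of 1.21 ± 0.30 (adjusted p = 0.0074). This call was lost without the filter on low counts, in 1 fit of the 4 populations and by the study's test (adjusted p = 0.010, 0.020 and 0.025). Its ranges overlapped with and without the 12 pools (1.19 ± 0.12, adjusted p = 7.2e-09, without them).

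Wnt5a, a ligand that guides cell movement and limb and axis outgrowth, was at 3.10 to 43.2 CPM (median 14.3) in the pools labelled Gata3-GFP+ MC and 0.687 to 121 (median 65.2) in those labelled Gata3-GFP- MC. The log2 fold change was -2.03 ± 0.35 (adjusted p = 0.00015). In the pools that matched their label the ranges, 3.10 to 28.0 and 42.8 to 121, no longer overlapped (-2.42 ± 0.25, adjusted p = 8.5e-09). Wnt2 was at 0 to 12.3 CPM (median 0) and 0 to 42.2 (median 7.80), a log2 fold change of -3.97 ± 0.89 (adjusted p = 0.0030). Its groups overlapped in both settings (-4.04 ± 0.82, adjusted p = 0.00043, without the 12 pools).

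A further 9 members were called when the 12 pools were left out, of which DESeq2's Wald test also called Sfrp2, Ror1, Axin2 and Dkk2 with every pool. Sfrp2 (log2 fold change 1.73), Ror1 (1.48) and Fzd7 (0.66) were higher in Gata3-GFP+ MC, and Rspo2 (-2.98), Axin2 (-2.47), Dkk2 (-1.84), Ror2 (-1.30), Rspo3 (-1.21) and Lgr4 (-0.42) were lower. Their log2 fold changes with every pool were 1.77, 1.45, 0.72, -1.68, -1.93, -1.69, -1.19, -1.13 and -0.25 in that order. Ror1 and Ror2, receptors of the same family, thus differed in opposite directions without these pools. Ror1 was then at 86.1 to 216 CPM (median 153) in Gata3-GFP+ MC and 22.5 to 87.3 (median 56.1) in Gata3-GFP- MC, and Ror2 at 3.38 to 25.7 (median 8.83) and 16.9 to 46.8 (median 29.3). Of 7 mesenchymal markers, 4 were called higher and 1 lower without the 12 pools, and none was called with them. The 7 sympathetic markers then summed to 48.1 to 120 CPM in Gata3-GFP+ MC and 5.28 to 39.1 in Gata3-GFP- MC, and the 5 muscle and sclerotome markers to 0 to 5.49 and 7.09 to 101, with no overlap for either. The part of these markers in the result was not tested.

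In SNS every called member was lower in the pools labelled Gata3-GFP+. Of 35 members tested, 0 were called higher by edgeR, by DESeq2 or by the study's test, with 0 at an unadjusted p under 0.05 in edgeR, against 2.01% of all genes, and 4 were called lower, against 1.85%. When the 12 pools were left out, 33 were tested and 12 were called, all lower, against 5.48% of all genes called lower and 4.94% called higher. All 4 members called with every pool were among these 12. Rspo1 passed the filter only through Gata3-GFP- pools, so the counts of lower members are in part fixed by the filter.

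Rspo1, an R-spondin, was at 0 to 1.03 CPM (median 0, n = 18) in the pools labelled Gata3-GFP+ SNS and 0 to 24.1 (median 5.01, n = 19) in those labelled Gata3-GFP- SNS, a log2 fold change of -6.40 ± 0.78 (adjusted p = 1.1e-06). Most Gata3-GFP- pools were above every Gata3-GFP+ pool. In the remaining pools it had 2 counts in Gata3-GFP+ SNS and 770 in Gata3-GFP- SNS, a ratio of 367 (95% counting interval 101 to 3035). That interval too leaves out the spread between pools.

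Sfrp1 was at 13.8 to 200 CPM (median 65.8) in the pools labelled Gata3-GFP+ SNS and 114 to 280 (median 223) in those labelled Gata3-GFP- SNS, a log2 fold change of -1.49 ± 0.22 (adjusted p = 2.2e-05). In the pools that matched their label the ranges were 13.8 to 110 (n = 15) and 114 to 280 (n = 16) and did not overlap (-1.79 ± 0.22, adjusted p = 1.8e-07). Sfrp5, another Wnt-binding antagonist, was at 0 to 1.64 CPM (median 0) and 0 to 74.6 (median 4.03), a log2 fold change of -4.74 ± 0.87 (adjusted p = 0.00038). Its Gata3-GFP- pools were uneven, and the groups overlapped near 0 (-5.0 ± 0.86, adjusted p = 5.6e-05, without the 12 pools). The ligand Wnt6 was also lower (-4.94).

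Left out of the first count and called without the 12 pools were the receptors Fzd2 (log2 fold change -1.03), Fzd7 (-1.03) and Lgr4 (-1.83), the R-spondins Rspo2 (-2.51) and Rspo3 (-3.86), the antagonists Dkk2 (-3.08) and Sfrp2 (-1.46) and the ligand Wnt5a (-1.47). With all pools their log2 fold changes were -0.60, -0.81, -1.07, -1.15, -0.35, -0.09, -2.21 and -0.20. Lgr4 was at 18 to 66.5 CPM (median 29.7) in Gata3-GFP+ SNS and 45.4 to 180 (median 116) in Gata3-GFP- SNS without those pools. Among the pools that matched their label all 7 mesenchymal markers were called lower in Gata3-GFP+ SNS, at a sum of 101 to 335 CPM (median 201) against 367 to 897 (median 505), all 7 sympathetic markers higher, and 4 of 4 tested markers of coelomic epithelium lower; their part in the members' differences was not tested.

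**Figure D5:**
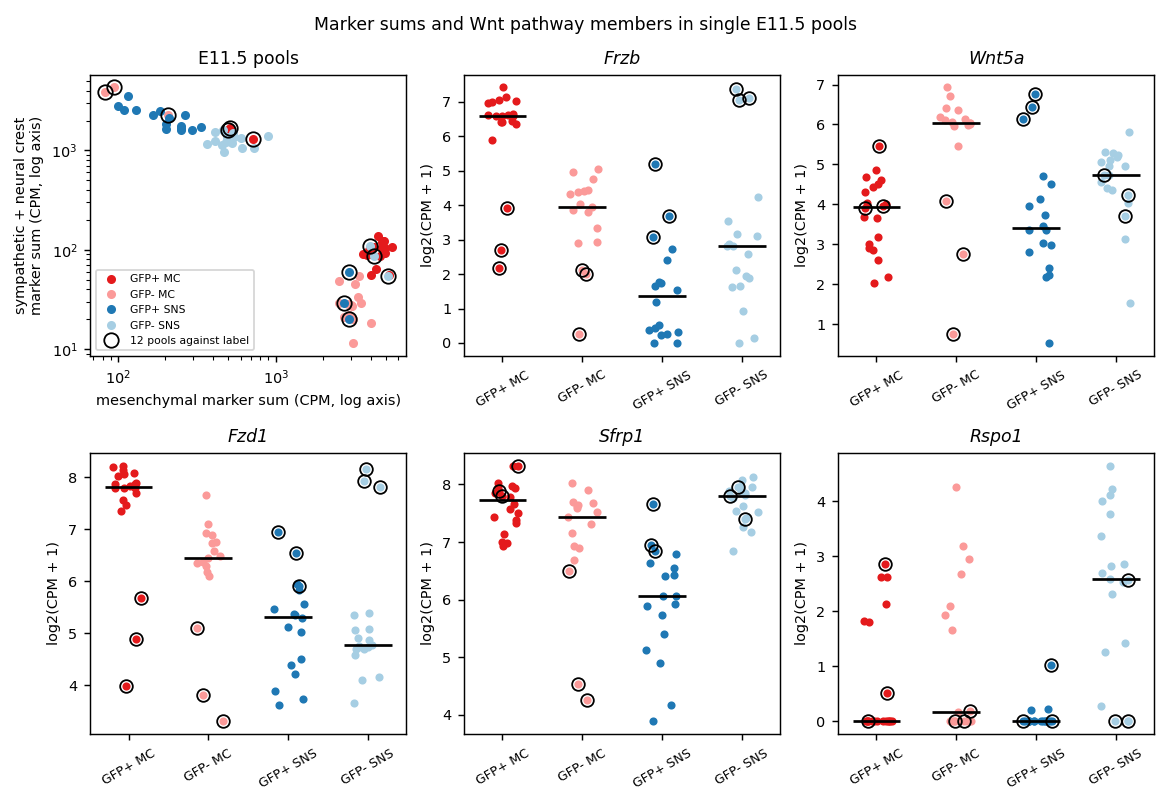
Single E11.5 pools; the first panel plots the sum of sympathetic and neural crest markers against that of mesenchymal markers (CPM, log axes), and the others log2(CPM + 1) of 5 members with the median as a line. Black rings mark the 12 pools whose markers went against their label; apart from these, Frzb and Wnt5a separate the Gata3-GFP+ and Gata3-GFP- MC, and Sfrp1 the Gata3-GFP+ and Gata3-GFP- SNS.

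Across all 4 comparisons, the members named above differed in where they were called. Wnt11 was called in EC, was not tested in HC (means 1.03 and 0.428 CPM) and had log2 fold changes of -0.30 in MC and 0.96 in SNS (adjusted p = 0.81 and 0.64). Dkk2 was called higher in EC and HC, and had -1.69 in MC and -0.09 in SNS with all pools. Without the 12 pools it was called lower in both MC (-1.84) and SNS (-3.08). Lgr5 and Dkk1 were not tested in HC, and Dkk1 was not called in MC (1.47, adjusted p = 0.25) or SNS (-2.03, adjusted p = 0.21). Fzd1 was called higher in EC and HC, and in MC with the limits given above. Fzd3 had log2 fold changes of 0.01 in MC and 0.04 in SNS. Sfrp1 was called higher in EC and HC and lower in SNS, and had 0.41 in MC (adjusted p = 0.26). Wnt2 was called higher in HC and lower in MC, and Wnt6 higher in HC and lower in SNS.

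The cell types of a stage were then compared within each GFP fraction, in 1 fit of the 4 populations. These comparisons use the pools already described. Among Gata3-GFP+ cells, 14 of 38 members tested were higher in HC than in EC, against 23.3% of all genes, and 8 were lower, against 19.7%. Those higher in HC were the ligands Wnt2 (log2 fold change 3.98), Wnt3 (5.60), Wnt6, Wnt7a, Wnt7b and Wnt10a, the R-spondins Rspo1 (3.56), Rspo2 (4.95) and Rspo4 (5.15), Lgr4 (1.17), the receptors Ror1 (3.32) and Fzd7 (2.19), Sfrp1 (1.38) and Axin2 (2.28). Wnt6, Wnt7a, Wnt7b and Wnt10a had at most 4 counts over all Gata3-GFP+ EC pools. Those lower in HC were Fzd4 (-4.61), Dkk2 (-4.51), Wnt11 (-4.37), Lgr5 (-3.80), Fzd6 (-3.30), Fzd8 (-1.82), Lrp6 (-1.18) and Lrp5 (-0.98). Fzd4, an endothelial Frizzled needed for retinal vessels, was at 10.9 to 90.8 CPM in Gata3-GFP+ EC and 0 to 10.4 in Gata3-GFP+ HC, with no overlap. Without the 8 HC pools with surface ectoderm markers, 6 members were higher, against 20.2% of all genes, and 8 lower, against 16.7%.

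Among Gata3-GFP- cells, Axin1 (log2 fold change 1.11) and Rspo2 (3.56) were higher in HC, against 18.1% of all genes, and 7 members were lower, against 20.2%. They were Fzd10 (-5.17), Fzd4 (-4.84), Fzd3 (-3.96), Fzd6 (-3.65), Dkk1 (-3.04), Fzd8 (-1.87) and Dkk2 (-1.80). Of the 7, 5 were Frizzled receptors. Receptors and co-receptors made up 14 of the 38 members tested, and 9 of them were not called. Fzd4 and Fzd10 did not overlap between Gata3-GFP- EC and Gata3-GFP- HC.

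At E11.5, among Gata3-GFP+ cells, 0 of 39 members tested were higher in SNS than in MC by edgeR or DESeq2, with 3 at an unadjusted p under 0.05 in edgeR, against 12.5% of all genes, and 12 were lower, against 12%. The lower members with the largest changes were Frzb (log2 fold change -4.46), Sfrp2 (-4.35) and Ror1 (-2.72). Lrp6, also called lower (-0.40), turned to 0.24 under ERCC scaling. Leaving out the 12 pools gave 3 higher, against 18.9%, and 20 lower, against 18.1%. Among Gata3-GFP- cells, Sfrp5 (5.66) and Wnt6 (5.07) were higher in SNS, against 3.15% of all genes, and Wnt2 (-4.04), Wnt16 (-3.64) and Fzd4 (-1.63) were lower, against 2.58% (5.74% in either direction). Leaving out the 12 pools gave 5 members higher and 17 lower, against 11.1% of all genes in each direction.

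The effect of GFP was also compared between the cell types of a stage, by the interaction term of the same fits. It was higher in HC than in EC for 11 of 38 members, against 13.2% of all genes, and lower for 4, against 9.27%. Without the 8 HC pools with surface ectoderm markers these were 6, against 10.8%, and 4, against 8.59%. In SNS against MC it was higher for 0 of 39 members by edgeR, with 2 at an unadjusted p under 0.05 and 1 by DESeq2, against 5.17% of all genes, and lower for 5, against 4.49%. With the 12 pools left out these were 0, against 4.73%, and 10, against 5.64%. The members are named with their values among the additional observations.

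The other genes of the pathway were taken from fixed lists of 55 genes, from Wnt secretion to nuclear factors. In EC, 18 of 42 tested were called higher in the Gata3-GFP+ pools, against 19.5% of all genes, and 2 lower, against 16.5%. Sost, an inhibitor of Lrp5 and Lrp6, was at 10.7 to 60.2 CPM (median 31.6) in Gata3-GFP+ EC and 0 to 4.68 (median 1.07) in Gata3-GFP- EC, with no overlap (log2 fold change 4.56). The planar polarity gene Prickle2 (3.75) was higher too, and Wls, which carries Wnts to the cell surface, was at 136 to 289 CPM against 40.9 to 97.8, also without overlap (1.48). The genes called lower were Nkd1 (-2.44) and Lef1 (-2.01), both known targets of β-catenin. Lef1 was at 0 to 22.5 CPM (median 5.77) in Gata3-GFP+ EC and 12.4 to 45.9 (median 25.9) in Gata3-GFP- EC. Of the 12 genes on the list of feedback targets, 7 were tested in EC, and these 2 were the ones called.

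In HC, 26 of 46 pathway genes tested were called, all higher in the Gata3-GFP+ pools, against 17.1% of all genes called higher and 9.53% lower. Without the 8 pools with surface ectoderm markers 18 of 43 were called, again all higher, against 12.5% and 7.35%. The changes were largest for Kremen2 (log2 fold change 7.14), a receptor for Dkk proteins, Sostdc1 (4.74), Lef1 (3.56) and Tpbg (3.53). Kremen2 and Sostdc1 were not called without those 8 pools. Lef1 was at 0.527 to 24.5 CPM (median 6.67) in Gata3-GFP+ HC and 0 to 4.69 (median 0.322) in Gata3-GFP- HC. It had thus opposite signs in EC and HC, as had Nkd1 (2.88 in HC). Of the feedback targets, 4 of 7 tested were higher in HC, namely Lef1, Nkd1, Tcf7 and Tnfrsf19.

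In MC, 2 of 44 pathway genes tested were higher, Wls (log2 fold change 0.63) and Tcf7l2 (0.62), and Celsr3 (-3.49) was lower, near the shares of all genes (2.21% and 2.15%). Leaving the 12 out, Wls and Tcf7l2 were higher and Lef1 (-1.56) and Ptk7 (-0.83) lower among 43 tested, against 5.52% and 4.90% of all genes. In SNS, Tnfrsf19 (-2.68) and Tcf7l1 (-0.60) were the ones called among 45 tested, both lower, against 1.85% of all genes called lower and 2.01% higher. Leaving the 12 out, 2 were higher, against 4.94%, and 6 lower, against 5.48%, including Ctnnb1, which encodes β-catenin (-0.30).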

How the data were processed

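RNA was sequenced from 160 pools of 20 sorted cells. The deposited values were raw counts per gene, made by the authors with HTSeq, and carried no normalization. The study's methods name STAR and Ensembl release 81, whereas the submitters' processing notes name GSNAP and HTSeq 0.5.3p3 with mm10. Strand and overlap settings are not given in the sources used here. Reads that HTSeq could not assign to 1 gene made up 7.15% to 30.4% of those on genes (median 25.5%), and this row and the other summary rows were left out of library sizes and tests.

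Pools had to pass the study's limits (a minimum of 500000 reads on genes or spike-ins and of 20% of reads on genes, and at most 20% mitochondrial and 20% spike-in reads). Its further limit on well-covered genes was not used, since that term is not defined. This left 153 pools. Columns of a population carry no sample number, so pools were assigned to populations by the column names. Gene symbols came from GENCODE M21, which held 45143 of 46078 identifiers. CPM values used TMM scaling over all passing pools.

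Tests used edgeR 4.0.16 in R 4.3.3 (TMM, robust quasi-likelihood fit), on genes that reached 10 counts in 5 or more compared pools, with Benjamini-Hochberg adjustment over all genes tested. Each SE of a log2 fold change was its size divided by the square root of the test's F statistic. It was not fitted directly and may be too small for members nearly absent from a group. Each GFP comparison was fitted on its own pools. The cell types of a stage and the difference of their GFP effects came from 1 fit of 4 populations. Stages were not tested against each other, since stage and cell type cannot be told apart. Alternatives were DESeq2 1.42.0 (size factors and Wald test), ERCC scaling, no filter, a filter in at least 20 pools, all 160 pools, an adjusted p under 0.05, a log2 fold change beyond 1, and the study's own test (scanpy 1.11.5 on values normalized with scran 1.30.0). Leaving out pools whose markers stood apart was chosen after seeing the data. In simulated EC counts, 42.6% of genes changed 2-fold and 75.3% of those changed 4-fold that were tested were called, with 1 false call. False calls numbered 1 in simulated HC counts, 4 of 121 calls in MC and 1 in SNS. The simulated pools were drawn independently, so embryos shared between pools were not modelled.

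The rule for the genes uses symbols alone, but it, the gene lists and the tests were chosen with earlier results of these data known. Given with pool values were, in each GFP comparison, up to 6 called members with the largest change and 10 counts or more in no fewer than 50% of the higher population's pools. Other called members were named with their log2 fold change.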

Additional observations from a re-analysis of the deposited data

Results flagged for a closer look

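The effect of GFP differed between HC and EC for 15 of 38 members tested, by the interaction term of the fit of the 4 E10.5 populations with edgeR (adjusted p under 0.01). For 11 members the log2 fold change of Gata3-GFP+ against Gata3-GFP- was higher in HC than in EC, against 13.2% of all genes, and for 4 it was lower, against 9.27%. The difference, HC minus EC, was -5.61 for Wnt11, -5.30 for Lgr5, -2.71 for Dkk2 and -0.89 for Lrp6. It was 9.19 for Wnt7a, 7.19 for Wnt7b, 5.66 for Wnt6, 5.16 for Rspo4, 4.73 for Wnt3, 4.18 for Fzd10, 3.96 for Wnt2, 3.73 for Ror1, 3.63 for Axin2, 3.34 for Fzd3 and 1.60 for Lgr4. Wnt3, Wnt6, Wnt7a and Wnt7b had at most 8 counts over all pools of either EC population, and their fitted differences depend on the prior count. Without the 8 Gata3-GFP+ HC pools with surface ectoderm markers, 6 members were higher, against 10.8% of all genes, and 4 lower, against 8.59%. All 10 had been called with every pool, and Lgr4, Wnt3, Wnt6, Wnt7a and Wnt7b were no longer called. Under ERCC scaling the median interaction of all genes moved by 0.67, and Lrp6 was no longer called.

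At E11.5 the effect of GFP differed between SNS and MC for 5 of 39 members tested, all lower in SNS, against 4.49% of all genes. The difference, SNS minus MC, was -7.76 for Sfrp5, -5.31 for Frzb, -5.22 for Rspo1, -3.97 for Sfrp2 and -1.91 for Sfrp1. Of the 5, 4 were Wnt-binding antagonists, and antagonists made up 9 of the 39 members tested. Leaving out the 12 pools whose markers went against their label gave 10 members called lower, against 5.64%, of which 4 had been called with every pool, and Sfrp5 was not called (-4.64, adjusted p = 0.16).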

How the results depend on the processing

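No paired analysis was possible because the columns of the count table carry no replicate numbers. Under the alternatives, 120 counts of called members stayed within 1.5 times the reported count and 42 did not. With at least 10 counts required in at least 20 pools, which tests fewer genes, 7 members were higher in EC, 7 in HC, and 1 was lower in MC and 1 in SNS. ERCC scaling gave 2 lower in EC and 4 higher in MC. In the cell type comparisons it gave 5 lower in HC than EC among Gata3-GFP+ cells, 4 higher among Gata3-GFP- cells, 3 higher in SNS than MC among Gata3-GFP+ cells and 1 lower among Gata3-GFP- cells. It moved the median log2 fold change of all genes by 0.35 in SNS, by 0.76 for HC against EC among Gata3-GFP+ cells, by 0.67 and 0.28 for SNS against MC among Gata3-GFP+ and Gata3-GFP- cells, and by 0.38 for the difference of the GFP effects in SNS and MC. Without the filter, 2 were lower in EC, 1 lower in HC, 1 higher in MC, 4 higher in HC than EC among Gata3-GFP- cells, and 1 and 4 higher in SNS than MC among Gata3-GFP+ and Gata3-GFP- cells. The DESeq2 Wald test gave 2 lower in EC, 4 higher and 4 lower in MC, 4 higher in HC than EC among Gata3-GFP- cells, and for the difference of the GFP effects in SNS and MC 1 higher and 8 lower. The study's test gave 2 lower in EC, 1 lower in HC and 1 higher in MC. An adjusted p under 0.05 gave 2 lower in EC, 1 lower in HC, and 4 higher and 6 lower in MC. In 1 fit of the 4 populations 1 was higher in MC. Without the Gata3-GFP+ EC pool with mesenchymal markers 2 were lower in EC. Without the 8 Gata3-GFP+ HC pools, 14 were higher in HC, 6 higher in HC than EC among Gata3-GFP+ cells and 6 higher in the difference of the GFP effects. With the 12 pools left out, 5 were higher and 8 lower in MC, 12 lower in SNS, 3 higher and 20 lower in SNS than MC among Gata3-GFP+ cells, 5 higher and 17 lower among Gata3-GFP- cells, and 10 lower in the difference of the GFP effects. The causes were not tested.

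The direction of single members turned in 8 values. The log2 fold change of Lgr4 in MC was 0.0041 by the study's test. Under ERCC scaling Lrp6 was at 0.24 for SNS against MC among Gata3-GFP+ cells, and Lrp6 at 0.10 and Lgr4 at 0.088 among Gata3-GFP- cells. With the 12 pools left out, Sfrp5 was at 2.88 for SNS against MC among Gata3-GFP+ cells and Frzb at -1.82 among Gata3-GFP- cells, and the difference of the GFP effects was -2.66 for Rspo3 and -2.88 for Wnt11. Of the other values, 1132 kept their direction and their side of the threshold, 77 were called only under the alternative and 44 only as reported.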

Other observations

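Some ligands that were too rare to be tested were present in single HC pools. In 1 Gata3-GFP- HC pool, Wnt1 was at 16.7 CPM and Wnt3a at 17.9, the highest value of either in any pool, and the next highest was 2.09 for Wnt1 and 8.16 for Wnt3a. Wnt9b, which had no count in Gata3-GFP- HC, reached 6.67 CPM and Wnt10b 5.76 in single Gata3-GFP+ HC pools. The highest values of Wnt2b, Wnt8a, Wnt8b and Dkk4 in any of the 153 pools were 5.0, 3.80, 3.14 and 1.85 CPM.

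Dkk1 was uneven among the pools of several populations, at 0 to 92.4 CPM (median 13.2, n = 20) in those labelled Gata3-GFP+ MC, 0 to 32.2 (median 6.68, n = 17) in those labelled Gata3-GFP- MC and 0 to 47.8 (median 0.198, n = 19) in those labelled Gata3-GFP- SNS. Without the pools whose markers went against their label, the highest value in Gata3-GFP- SNS was 8.48 (n = 16), and those in Gata3-GFP+ and Gata3-GFP- MC were as before.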
